A study of Homo sapiens with 6 samples.

Results

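THRB and RARB are neighbouring genes for nuclear hormone receptors on the short arm of chromosome 3, and both were counted in control PC3 cells and almost never in cells overexpressing GCNT1. These 2 genes were chosen by that fall, so their counts are given as a description and without a test. The 8 other genes described with them were picked by position or by family: UBE2E2, NR1D2, TOP2B and NGLY1 flank the pair, and THRA, RARA, RARG and RXRA are related receptors on other chromosomes. All 10 genes were matched by Entrez identifier and were among the 12703 genes of the count table. PC3 is an established human cell line from a prostate cancer metastasis. RNA was sequenced from 3 PC3 lines with lentiviral overexpression of GCNT1, an enzyme of the Golgi that builds core 2 O-glycans, and from 3 PC3 lines that had received the negative-control lentivirus (Lenti-ORF control). Each line gave 1 poly(A)-selected, stranded library, and the groups are called GCNT1 OE and control. The sources used here do not say whether a line was 1 clone or a pool, and p-values measure the spread between these lines only.

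The thyroid hormone receptors, encoded by THRA and THRB, and the retinoic acid receptors, encoded by RARA, RARB and RARG, are transcription factors that sit on DNA as partners of a retinoid X receptor such as the product of RXRA. Without hormone they hold corepressor complexes on their target genes, and hormone exchanges these for coactivators. RARB is itself a classic target of retinoic acid and is often described as silenced in epithelial cancers. The pair lies in a block of genes that has a related copy on the long arm of chromosome 17: THRB, NR1D2, RARB and TOP2B on chromosome 3 correspond to THRA, NR1D1, RARA and TOP2A on chromosome 17.

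The libraries held 11392213 to 13825704 counts. Levels are given as CPM, counts scaled to a common library size, here after TMM factors. A gene was called when its Benjamini-Hochberg (BH) adjusted p was under 0.05 and its absolute log2 fold change was over 0.58, which was the case for 2457 of 12703 genes (19.3%), 1052 higher with GCNT1 OE (8.28%) and 1405 lower (11.1%). An adjusted p under 0.05 without the fold limit was reached by 57.6% of genes. GCNT1 itself had 9, 13 and 8 reads in the control lines against 13, 16 and 35 with GCNT1 OE, a log2 fold change of 0.98 ± 0.37 (SE, edgeR quasi-likelihood, BH-adjusted p = 0.0362) that was 0.49 (edgeR BH-adjusted p = 0.269) without GCNT1 OE replicate 3. Its adjusted p also exceeded 0.05 without control replicate 1 (0.0920), without control replicate 3 (0.0944) and with DESeq2 (0.0821). GCNT1 reached the lowest level of the table, a CPM of 1.01 in 3 libraries, through the GCNT1 OE lines alone, so that its test is on a gene that the limit let through where it was higher. Control and GCNT1 OE libraries lay apart on the first principal component, which carried 89.3% of the variance. Epithelial keratins and vimentin were present in both groups (KRT8 at 222 and 202 CPM, VIM at 1127 and 1390 CPM in control and GCNT1 OE), while KLK2 and KLK3 were not among the genes analysed here. Of 12 markers of other cell types only 4 were among the analysed genes (COL1A1, PECAM1, ACTA2 and SYP), and these summed to 19.9 to 23.05 CPM in controls and 16.96 to 18.9 CPM in GCNT1 OE. The sum covers opposite moves, since 3 of these 4 were called, PECAM1 higher (log2 fold change 1.31) and COL1A1 and SYP lower (-0.77 and -1.11), and their part in the other results was not tested. In bulk RNA of this kind fewer expressing cells and less RNA per cell cannot be told apart.

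The sequences upstream of annotated starts of the pair are shown because counts of both genes were lower in the same libraries. RefSeq (GRCh38.p14) gives 2 start windows for THRB and 4 for RARB, and the 250 bases before 4 of these starts are printed, from 5′ to 3′ on the strand of the gene. Capitals mark paired hexamers AGGTCA or its variants AGTTCA and GGGTCA and GGTTCA, the letters that these receptors commonly bind, where 2 of them stand in direct repeat with 5 bases between.
THRB start 1, chr3:24495709-24495958, minus strand: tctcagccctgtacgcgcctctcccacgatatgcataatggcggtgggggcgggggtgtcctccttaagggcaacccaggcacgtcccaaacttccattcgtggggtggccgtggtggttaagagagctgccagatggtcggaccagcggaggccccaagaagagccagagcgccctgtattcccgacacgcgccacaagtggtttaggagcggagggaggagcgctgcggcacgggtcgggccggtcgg
THRB start 2, chr3:24494851-24495100, minus strand: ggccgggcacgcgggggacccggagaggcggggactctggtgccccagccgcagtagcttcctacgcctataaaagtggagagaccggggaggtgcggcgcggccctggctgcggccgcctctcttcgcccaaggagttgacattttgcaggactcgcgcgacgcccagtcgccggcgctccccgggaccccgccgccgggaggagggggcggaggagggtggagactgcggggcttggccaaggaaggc
RARB start 1, chr3:24829071-24829320, plus strand: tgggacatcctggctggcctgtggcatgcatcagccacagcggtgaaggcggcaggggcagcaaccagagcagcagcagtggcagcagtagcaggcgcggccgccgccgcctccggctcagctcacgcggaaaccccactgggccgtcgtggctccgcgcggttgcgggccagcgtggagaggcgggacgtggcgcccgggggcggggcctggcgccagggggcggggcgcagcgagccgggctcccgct
RARB start 3, chr3:25428013-25428262, plus strand: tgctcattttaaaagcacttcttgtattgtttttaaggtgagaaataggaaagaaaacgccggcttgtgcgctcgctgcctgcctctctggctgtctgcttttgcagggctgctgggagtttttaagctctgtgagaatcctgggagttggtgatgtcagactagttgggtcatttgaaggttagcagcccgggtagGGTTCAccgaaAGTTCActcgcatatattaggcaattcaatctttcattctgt
The window of RARB start 3 held 1 such repeat, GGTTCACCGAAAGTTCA, from 53 to 37 bases before the start. It was the only repeat with a spacing of 5 among the 22 windows of the 10 genes. Among 35116 such windows of all genes in the reference 26 held a repeat of this spacing (0.074%), counted on both strands. The same hexamers with 4 bases between, the spacing classically bound by thyroid hormone receptors, were found in 0 of the 22 windows and in 26 of the 35116 (0.074%), and with 2 bases between in 0 of the 22 and in 11 of the 35116 (0.0313%). A match is a description of the letters and not of binding, and no match says only that these letters are not in this window. The base composition differed along RARB: the windows of starts 1 to 4 held 28, 1, 7 and 1 CpG dinucleotides, with 76.0%, 41.6%, 46.0% and 29.6% G or C, against a median of 11 CpG and 58% over all windows. The THRB windows held 21 and 27 CpG, with 65.2% and 72.8% G or C. Counts were made per gene, so they do not show which start was used.

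THRB (Entrez identifier 7068) lies on the minus strand of chromosome 3 of hg38, from 24117153 to 24495708. It encodes thyroid hormone receptor beta. THRB was counted 16, 27 and 15 times in control replicates 1 to 3 and 0, 0 and 1 times in GCNT1 OE replicates 1 to 3. Every control library was above every GCNT1 OE library, and the only count left was in GCNT1 OE replicate 3. Scaled for depth, controls had 1.57 ± 0.519 CPM (SD, n = 3) and GCNT1 OE lines 0.0236 ± 0.0409 CPM (SD, n = 3). The 58 counts of the controls against the 1 count of GCNT1 OE gave a ratio of 62.0 after scaling, with an exact 95% interval from 10.7 to 2492 that covers counting error only. The interval describes the counts by which the gene was chosen and is not a test.

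RARB (Entrez identifier 5915) lies on the plus strand of chromosome 3, from 24829321 to 25597932, and spans 768612 bases. It encodes retinoic acid receptor beta. RARB had 22, 24 and 29 reads in the control lines against 0 in each GCNT1 OE line. The control level was 2.04 ± 0.366 CPM (SD, n = 3). Against a floor of 3 counts per library, 0.230 CPM on average in GCNT1 OE, RARB was at least 8.88-fold lower.

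The pair was weakly expressed even in controls: THRB stood above 5.53% and RARB above 7.84% of the analysed genes by mean control CPM. Every analysed gene reached a CPM of at least 1.01 in 3 libraries, so both genes entered the table through the controls alone. This route favours genes that are higher in controls but does not force a call. ZCWPW2, farther along the same chromosome, also entered through the controls alone and was not called. Among the genes called lower, 94 had 3 counts or fewer in every GCNT1 OE library and 34 of them had 0 in all 3. The transcribed span of THRB holds the annotated genes THRB-IT1 on the same strand and THRB-AS1 on the other. GENCODE 44 places no other protein-coding or long noncoding RNA gene in the span of RARB. In RefSeq the ends of RARB and TOP2B, which face each other, overlap by a few bases.

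**Figure D1:**
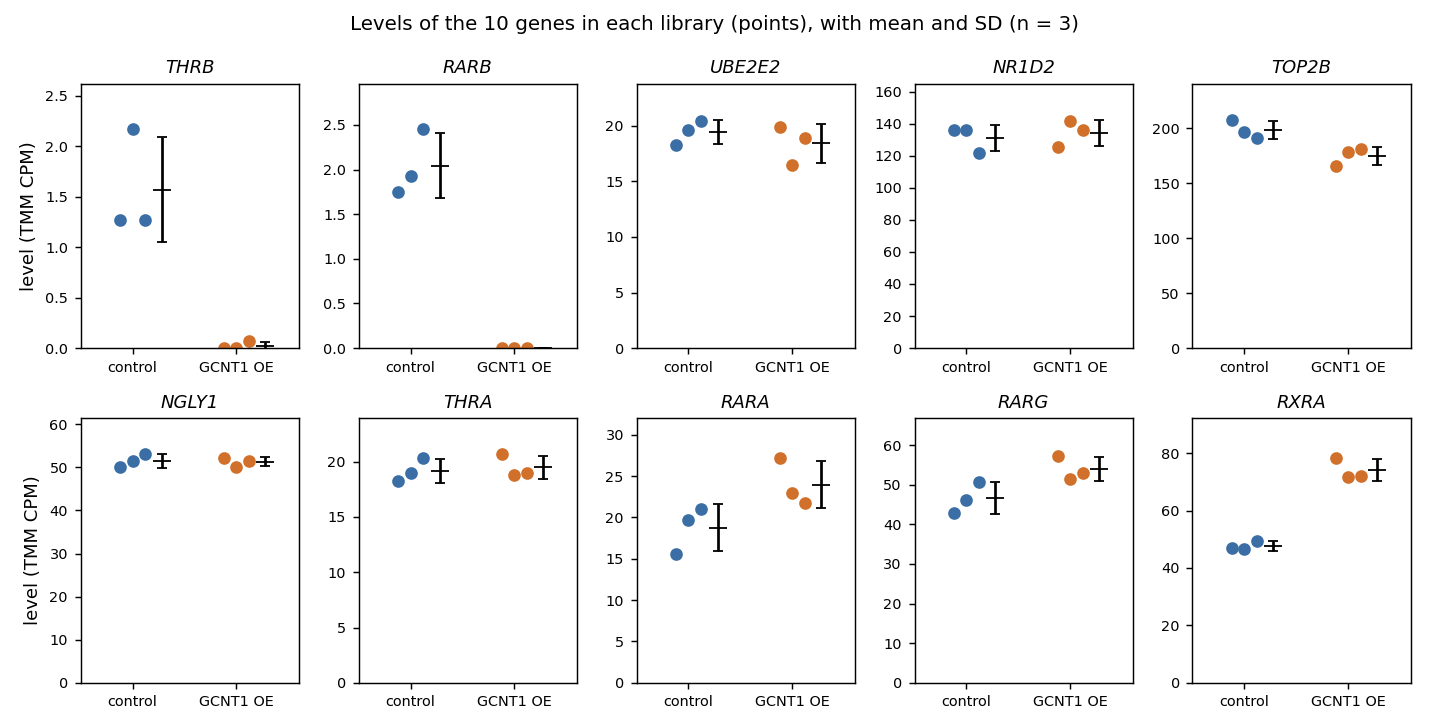
Level of each of the 10 genes in TMM-scaled CPM (vertical axes start at 0), with 1 point per library, blue for control and orange for GCNT1 OE, and the mean with SD (n = 3) as a black bar beside the points. THRB and RARB drop to between 0 and 0.0709 CPM. RXRA, RARA and RARG are higher in all 3 GCNT1 OE libraries than in every control, RXRA by the most. Of the flanking genes TOP2B is slightly lower in all 3 GCNT1 OE libraries, and the others overlap between the groups.

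The genes next to the pair kept most of their reads. Of the 4 flanking genes 0 were called (19.3% of all genes), 1 had an adjusted p under 0.05 in edgeR (57.6% of all genes), and their log2 fold changes ran from -0.18 to 0.04. UBE2E2, which encodes an E2 ubiquitin-conjugating enzyme, had 230, 244 and 241 reads in the control lines against 230, 226 and 267 with GCNT1 OE. The UBE2E2 groups overlapped (log2 fold change -0.08 ± 0.09, SE, 95% interval -0.28 to 0.12; edgeR quasi-likelihood, BH-adjusted p = 0.479). NR1D2, which encodes the clock-linked repressor REV-ERB beta, had 1710, 1690 and 1437 reads in the control lines against 1453, 1944 and 1916 with GCNT1 OE. Its groups overlapped as well (log2 fold change 0.04 ± 0.06, SE, 95% interval -0.10 to 0.17; edgeR quasi-likelihood, BH-adjusted p = 0.641). NGLY1, the cytosolic enzyme that strips N-glycans from misfolded glycoproteins, had 629, 642 and 629 reads in the control lines against 603, 689 and 728 with GCNT1 OE. This was a log2 fold change of -0.01 ± 0.06 (SE, 95% interval -0.13 to 0.12; edgeR quasi-likelihood, BH-adjusted p = 0.912), with overlapping groups.

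TOP2B, the type II DNA topoisomerase of non-dividing and dividing cells alike, lies on the minus strand and ends where RARB ends. TOP2B had 2608, 2450 and 2265 reads in the control lines against 1920, 2455 and 2551 with GCNT1 OE, and its scaled level was 199 ± 7.97 CPM in controls and 175 ± 8.07 CPM in GCNT1 OE (SD, n = 3 each). All GCNT1 OE libraries were below all controls, by a log2 fold change of -0.18 ± 0.05 (SE, edgeR quasi-likelihood, BH-adjusted p = 0.00961), which is under the fold limit. The edgeR BH-adjusted p of TOP2B was 0.0563 without control replicate 1 and 0.0652 with library size in place of TMM. NKIRAS1 overlaps NR1D2, and OXSM overlaps NGLY1, each on the opposite strand, and the sources used here do not say whether the counting used strand.

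The wider neighbourhood, every analysed gene within 5 Mb of either gene of the pair, held 19 other genes with a median log2 fold change of -0.03, against 0.00 over all genes tested. Of these 19 genes 2 were called, both lower (19.3% of all genes were called), and both lie on the side of RARB away from THRB. SLC4A7, a sodium bicarbonate cotransporter, had 1963, 1871 and 1480 reads in the control lines against 678, 962 and 1058 with GCNT1 OE, a log2 fold change of -1.08 ± 0.09 (SE, edgeR quasi-likelihood, BH-adjusted p = 5.78e-07). EOMES, a T-box transcription factor, had 50, 53 and 52 reads in the control lines against 8, 15 and 5 with GCNT1 OE, a log2 fold change of -2.55 ± 0.27 (SE). Like the pair, EOMES reached the lowest level of the table through the controls alone, so its call is no independent test. They lie 1.77 and 2.12 Mb beyond the end of RARB. In both genes the groups did not overlap.

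The 8 other genes within 1 Mb of the pair were UBE2E2, UBE2E1, NKIRAS1, RPL15, NR1D2, TOP2B, NGLY1 and OXSM, of which 0 were called (19.3% of all genes) and whose median log2 fold change was -0.02. Between them and the 5 Mb limit the uncalled genes were RAB5A, KAT2B, SGO1, ZNF385D, NEK10, CMC1, AZI2, ZCWPW2 and RBMS3, with log2 fold changes from -0.40 for KAT2B to 0.50 for RBMS3. KAT2B and AZI2 were lower, and RAB5A, ZNF385D and RBMS3 higher, with an adjusted p under 0.05 in edgeR but under the fold limit. The calls of RAB5A and AZI2 at that p were each lost in 5 or 6 of 13 alternatives. Farther out on chromosome 3 the median log2 fold change was 0.01 over 145 genes at 5 to 20 Mb and 0.16 over 573 genes beyond 20 Mb. Of all 737 other analysed genes of chromosome 3, 73 were called higher and 48 lower, where 8.28% of all genes were called higher and 11.1% lower.

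**Figure D2:**
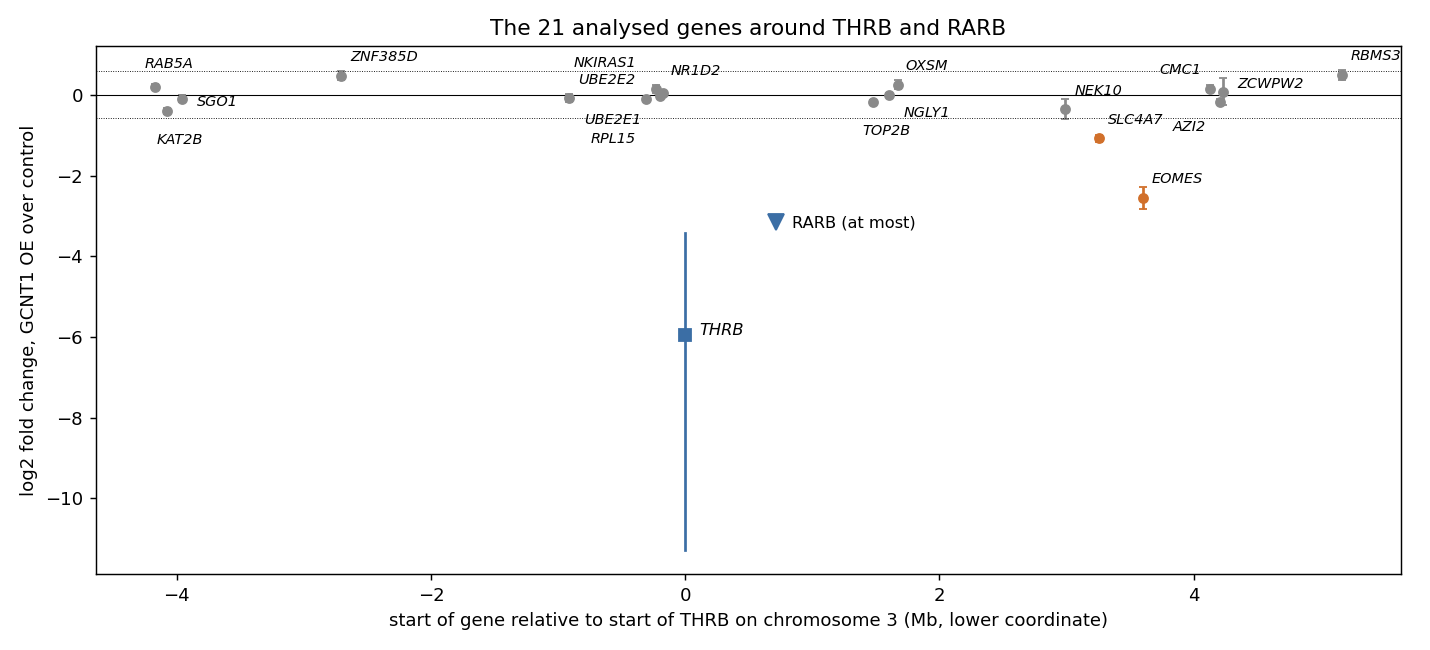
Log2 fold change of GCNT1 OE over control (vertical axis) for the 21 analysed genes around THRB and RARB, by each gene's position relative to the start of THRB in Mb. Bars are SE for the other 19 genes, orange marks called genes and dotted lines the fold limit of 0.58. THRB is drawn at the ratio of its counts with the exact 95% counting interval, which is no test, and RARB at the least fall its floor allows, nearby genes lie close to 0, and SLC4A7 and EOMES are the called ones.

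The related receptors on other chromosomes were counted at similar or higher levels in GCNT1 OE. THRA, which encodes thyroid hormone receptor alpha, lies on chromosome 17 from 40062193 to 40093867 and had 229, 236 and 240 reads in the control lines against 239, 258 and 268 with GCNT1 OE. Its scaled groups overlapped, at 19.2 ± 1.07 and 19.5 ± 1.02 CPM (SD, n = 3 each), and the 95% interval of the log2 fold change was -0.16 to 0.20 (edgeR quasi-likelihood, BH-adjusted p = 0.835). RARA, the widely expressed retinoic acid receptor alpha, lies on chromosome 17 from 40309180 to 40357643 and had 196, 245 and 248 reads in the control lines against 315, 315 and 307 with GCNT1 OE. RARA had 18.7 ± 2.82 CPM in controls and 24.0 ± 2.87 CPM in GCNT1 OE (SD, n = 3 each), without overlap (log2 fold change 0.35 ± 0.11, SE, edgeR quasi-likelihood, BH-adjusted p = 0.0187). Without control replicate 1, the lowest library, it was 0.24 (edgeR BH-adjusted p = 0.0787).

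RARG, which encodes retinoic acid receptor gamma and is most used in epithelia, lies on chromosome 12 from 53210569 to 53232209. RARG had 539, 575 and 600 reads in the control lines against 663, 707 and 746 with GCNT1 OE. The lowest GCNT1 OE library, at 51.5 CPM, was just above the highest control, at 50.8 CPM. The log2 fold change was 0.21 ± 0.07 (SE, edgeR quasi-likelihood, BH-adjusted p = 0.0256), and in 5 of 13 alternatives the adjusted p rose above 0.05. They included the fits without control replicate 1 (edgeR BH-adjusted p = 0.0984), control replicate 2 (0.0790), GCNT1 OE replicate 1 (0.0631) and GCNT1 OE replicate 3 (0.0547).

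RXRA was the only gene of the 8 that was called. It encodes retinoid X receptor alpha, the shared partner of the thyroid hormone, retinoic acid and vitamin D receptors, and lies on chromosome 9 from 134326455 to 134440585. RXRA had 590, 581 and 586 reads in the control lines against 908, 987 and 1017 with GCNT1 OE. Its level rose from 47.7 ± 1.62 to 74.1 ± 3.75 CPM (SD, n = 3 each), with a log2 fold change of 0.63 ± 0.06 (SE, edgeR quasi-likelihood, BH-adjusted p = 1.53e-06), and it stayed called in all 13 alternatives. Of the 8 genes picked by position or family, 4 had an adjusted p under 0.05 in edgeR and 1 was called, against 57.6% and 19.3% of all genes.

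Per kilobase of exon, THRB and RARB were the lesser members of their families already in controls. RPKM, the scaled CPM per kilobase, was computed with the joined exon length of GENCODE 44. In controls THRA stood at 2.61 ± 0.145 RPKM and THRB at 0.143 ± 0.0473 (SD, n = 3), so that THRB made up 5.19 ± 1.67% of the summed receptor level. In GCNT1 OE it made up 0.0830 ± 0.144%, and the sum of the 2 genes was 2.75 ± 0.145 RPKM in controls and 2.66 ± 0.138 in GCNT1 OE, a difference within the spread of the libraries. Among the retinoic acid receptors the control order was RARG at 9.09 ± 0.776 RPKM, RARA at 3.95 ± 0.595 and RARB at 0.216 ± 0.0388 (SD, n = 3), with no overlap between neighbours in that order. RARB made up 1.62 ± 0.137% of their sum in controls. The sum was 13.3 ± 1.38 RPKM in controls and 15.6 ± 1.17 in GCNT1 OE, where RARB added 0 counts.

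The REV-ERB and type II topoisomerase genes complete the 2 chromosome blocks. NR1D1, on chromosome 17 and overlapping the end of THRA on the opposite strand, had 12.3 ± 1.51 RPKM in controls and 9.49 ± 0.817 in GCNT1 OE, while NR1D2 had 22.6 ± 1.42 and 23.2 ± 1.40 (SD, n = 3 each). The log2 fold change of NR1D1 was -0.38 ± 0.10 (SE, edgeR quasi-likelihood, BH-adjusted p = 0.00450), under the fold limit. TOP2A, the topoisomerase of cycling cells, had 82.2 ± 2.79 RPKM in controls and 49.5 ± 1.13 in GCNT1 OE, and TOP2B 10.6 ± 0.427 and 9.39 ± 0.433 (SD, n = 3 each). TOP2A was called lower, with a log2 fold change of -0.73 ± 0.04 (SE, edgeR quasi-likelihood, BH-adjusted p = 1.87e-08).

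**Figure D3:**
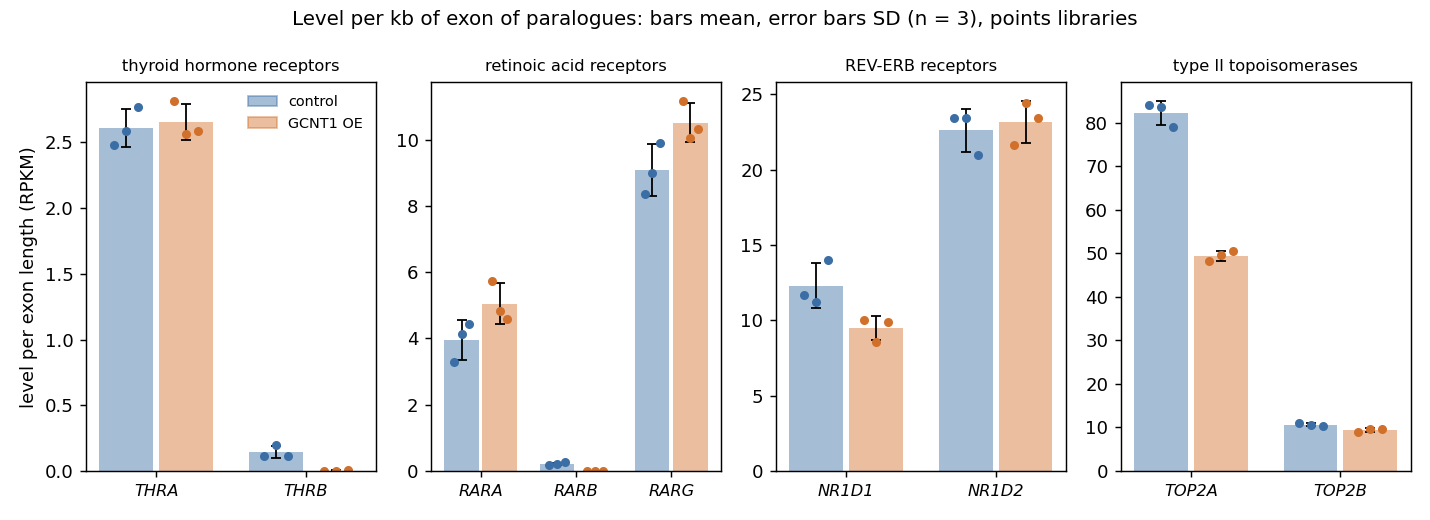
Level per kilobase of exon (RPKM, axes start at 0) of the paralogues in 4 families, with bars for the mean, error bars for SD (n = 3) and points for libraries, blue for control and orange for GCNT1 OE. THRB and RARB are the lowest members of their families in both groups, and TOP2A is lower in the GCNT1 OE libraries.

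Most analysed nuclear receptor genes were not called, and those that were called lay in both directions. Of the 48 human nuclear receptor genes 32 were among the analysed genes and 10 of these were called, 5 higher and 5 lower. Without the pair, which was chosen by its fall, 8 of 30 were called (against 19.3% of all genes), 5 higher and 3 lower, and their median log2 fold change was 0.11. Of these 8, NR5A2 reached the lowest level of the table through the controls alone and ESR2 and NR2E3 through GCNT1 OE alone. Such a route favours a difference without forcing one, since RORA also passed through GCNT1 OE alone and was not called (log2 fold change 0.04). The count is therefore not support for a change of the family. The vitamin D receptor VDR, an RXRA partner, changed most among these 30. VDR had 18, 18 and 13 reads in the control lines against 227, 236 and 234 with GCNT1 OE, from 1.33 ± 0.195 to 17.8 ± 1.61 CPM (SD, n = 3 each), with a log2 fold change of 3.73 ± 0.15 (SE, edgeR quasi-likelihood, BH-adjusted p = 4.28e-10). The opposite strand of VDR holds 2 unnamed annotated genes.

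The other receptors called higher were NR1H3, ESR2, NR2E3 and RXRA. NR1H3, the oxysterol receptor LXR alpha, rose from 14.6 ± 1.03 to 23.3 ± 2.92 CPM (SD, n = 3 each, with a log2 fold change of 0.67). ESR2, estrogen receptor beta, rose from 1.00 ± 0.176 to 2.53 ± 1.03 CPM (SD, n = 3 each, with a log2 fold change of 1.34), and the gene SYNE2 overlaps it on the opposite strand. NR2E3, a receptor best known from photoreceptors, had 20, 10 and 9 reads in the control lines against 34, 40 and 20 with GCNT1 OE. Its groups overlapped, and without control replicate 2 its call was lost (edgeR BH-adjusted p = 0.0556). The receptors called lower, besides the pair, were NR5A2, ESRRG and HNF4G, with log2 fold changes of -1.54, -1.02 and -0.75 and groups that did not overlap. NR5A2 had 17, 27 and 22 reads in the control lines against 5, 8 and 11 with GCNT1 OE. The 22 uncalled receptors ran from -0.45 for PPARG to 0.51 for NR4A3, and the most highly expressed of them, NR2F2, had 183 ± 10.4 CPM in controls and 156 ± 7.13 CPM in GCNT1 OE (SD, n = 3 each).

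**Figure D4:**
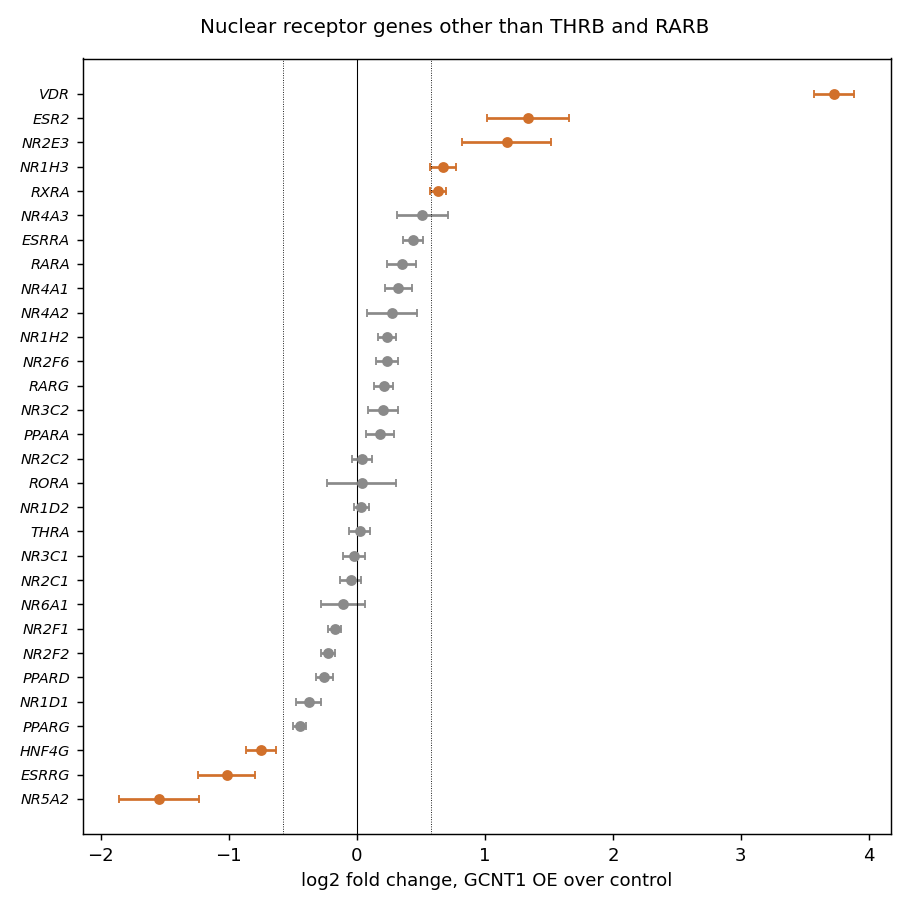
Log2 fold change of GCNT1 OE over control (horizontal axis) with SE for the 30 analysed nuclear receptor genes other than THRB and RARB; orange marks called genes and dotted lines the fold limit of 0.58. VDR stands apart at 3.73, and the 3 genes called lower are HNF4G, ESRRG and NR5A2.

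Among genes that handle or respond to retinoids, more were called lower than higher. Of 35 genes on a list of retinoid uptake, metabolism and response, 17 were among the analysed genes, of which 8 were called lower and 1 higher (52.9% called, against 19.3% of all genes), with a median log2 fold change of -0.54. RBP4, the retinol-binding protein that carries retinol between cells, had 1160, 1153 and 1126 reads in the control lines against 48, 51 and 55 with GCNT1 OE, a log2 fold change of -4.57 ± 0.08 (SE, edgeR quasi-likelihood, BH-adjusted p = 1.13e-13). FFAR4 overlaps RBP4 on the opposite strand. LRAT, which esterifies retinol for storage, had 29, 35 and 30 reads in the control lines against 2, 5 and 2 with GCNT1 OE, a log2 fold change of -3.43 ± 0.34 (SE). LRAT too reached the lowest level of the table through the controls alone, so its place among the 8 lower calls is no independent test. RDH10, which oxidises retinol to retinal, fell from 86.2 ± 3.07 to 39.8 ± 1.81 CPM (SD, n = 3 each, with a log2 fold change of -1.12), and RPL7 overlaps it on the opposite strand. CRABP2, which carries retinoic acid to its receptors, fell from 49.9 ± 1.79 to 27.5 ± 1.06 CPM (SD, n = 3 each, with a log2 fold change of -0.86).

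The other retinoid-list genes called lower were TNIP1, DHRS9, RAI14 and FABP5, with log2 fold changes of -0.80, -0.74, -0.73 and -0.64. TNIP1 is better known as an inhibitor of NF-kB signalling, RAI14 as an actin-binding protein and FABP5 as a fatty acid carrier, while DHRS9 is a retinol dehydrogenase. The call of DHRS9 was lost without control replicate 1 (log2 fold change -0.52, edgeR BH-adjusted p = 0.0869) and with DESeq2 (adjusted p = 0.0602). ALDH1A3, the enzyme that makes retinoic acid from retinal, was the most highly expressed uncalled gene. It had 998 ± 34.9 CPM in controls and 686 ± 11.2 CPM in GCNT1 OE (SD, n = 3 each), with a log2 fold change of -0.54 ± 0.04 (SE, edgeR quasi-likelihood, BH-adjusted p = 2.37e-07), just under the fold limit. PLAAT4, a phospholipase first isolated as induced by a retinoid, was called higher, with 26, 24 and 24 counts in controls and 60, 49 and 49 in GCNT1 OE (log2 fold change 1.00 ± 0.21, SE, edgeR quasi-likelihood, BH-adjusted p = 0.00117). TGM2, a transglutaminase and known retinoic acid target, was also higher, at 144 ± 16.1 CPM in controls and 215 ± 19.1 CPM in GCNT1 OE (SD, n = 3 each), without overlap, but its log2 fold change of 0.579 was just under the limit (edgeR BH-adjusted p = 3.57e-05). In 6 of 13 alternatives 2 genes of the list were called higher.

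Of 24 genes on a list of thyroid hormone transport, metabolism, response and receptor partners, 16 were among the analysed genes, of which 5 were called lower and 1 higher (37.5%, against 19.3% of all genes), with a median log2 fold change of -0.12. KLF9, a zinc finger transcription factor known as a direct target of thyroid hormone, had 400, 346 and 359 reads in the control lines against 16, 20 and 24 with GCNT1 OE. Its level fell from 30.0 ± 2.03 to 1.51 ± 0.167 CPM (SD, n = 3 each), with a log2 fold change of -4.29 ± 0.13 (SE, edgeR quasi-likelihood, BH-adjusted p = 1.93e-11). The amino acid transporters that accept thyroid hormone went opposite ways. SLC7A8 fell from 9.56 ± 0.697 to 1.46 ± 0.255 CPM, and SLC7A5 rose from 275 ± 17.1 to 457 ± 30.0 CPM (SD, n = 3 each, with log2 fold changes of -2.72 and 0.73). TRIP13 and TRIP12, with log2 fold changes of -1.12 and -0.70, carry thyroid receptor interactor names but are known as a checkpoint ATPase and a ubiquitin ligase. SLC3A2, the partner chain of both transporters, was the most highly expressed uncalled gene of the list over all 6 libraries (log2 fold change 0.46), and ME1 was slightly above it in controls alone (195.9 against 195.5 CPM).

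**Figure D5:**
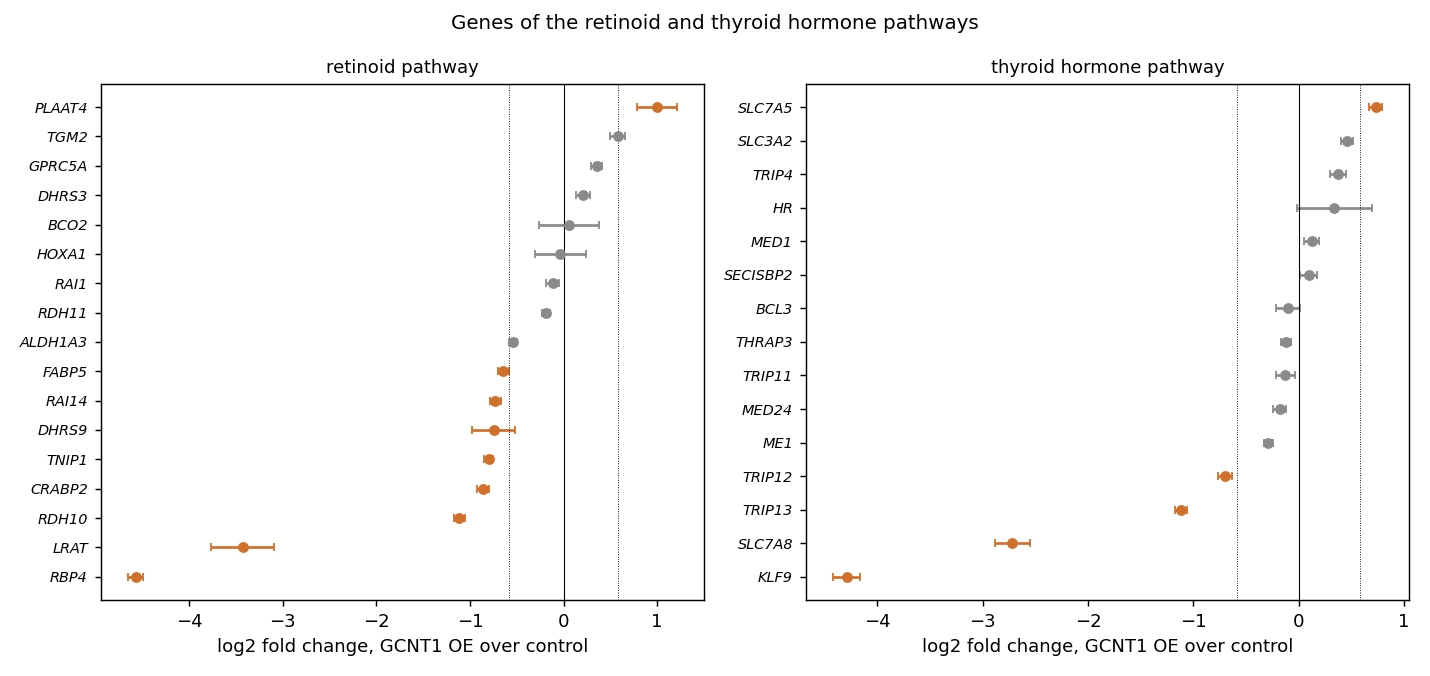
Log2 fold change of GCNT1 OE over control (horizontal axes) with SE for the 17 analysed genes of the retinoid list and for genes of the thyroid hormone list; orange marks called genes and dotted lines the fold limit of 0.58. RBP4 and LRAT, and KLF9 and SLC7A8, lie lowest in their lists, at -4.57, -3.43, -4.29 and -2.72.

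Among the coregulators that work with these receptors, few were called. Of 21 analysed genes of 22 listed, 1 was called higher and 1 lower (9.52%, against 19.3% of all genes), and the median log2 fold change was -0.19. An edgeR adjusted p under 0.05 was reached by 15 of the 21, 12 lower and 3 higher, where 57.6% of all genes reached it. TBL1X, a subunit of the NCOR corepressor complex, rose from 112 ± 2.15 to 172 ± 3.18 CPM (SD, n = 3 each, with a log2 fold change of 0.62). NSD1, a histone methyltransferase that binds nuclear receptors, fell from 204 ± 18.3 to 130 ± 12.2 CPM (SD, n = 3 each, with a log2 fold change of -0.64), and without control replicate 1 or without GCNT1 OE replicate 1 it was under the fold limit, so that 1 gene was called. The corepressor NCOR1 had overlapping groups and a log2 fold change of 0.04. HDAC3, the deacetylase of the same complex, had a log2 fold change of -0.28 without overlap (edgeR quasi-likelihood, BH-adjusted p = 0.00239), under the fold limit.

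Clock genes, listed because NR1D2 belongs to the clock, had 4 of 21 analysed genes called (19.0%, against 19.3% of all genes), all lower. These were PER3, BHLHE40, PER2 and NPAS2, with log2 fold changes of -0.93, -0.83, -0.63 and -0.63. With library size in place of TMM only 2 of them were called. BMAL2, the most highly expressed uncalled clock gene, had a log2 fold change of -0.26. Of 9 topoisomerase-related genes TOP2A alone was called (11.1%, against 19.3% of all genes). None of the 11 genes listed with NGLY1 (0 called; 6 with an edgeR adjusted p under 0.05) and none of the 7 UBE2D and UBE2E enzymes (0 called; 3 with an edgeR adjusted p under 0.05) passed both thresholds (19.3% of all genes passed both and 57.6% the adjusted p), and the count was 0 for both lists with limma-voom and DESeq2 too.

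Genes with the most similar pattern were named by the root mean square difference of centred log2 CPM over the 6 libraries. A prior count of 2 was added before the log, which sets the level of a gene at 0 counts and so decides how near it lies to a gene with a few counts. For THRB they were GPR162 (0.16), GH1 (0.22) and ASIC2 (0.27), and RARB, at 0.44, ranked 74th. GPR162 had 22, 27 and 18 reads in the control lines against 0, 0 and 1 with GCNT1 OE. GH1 has near-identical copies in the genome and GPR162 shares its strand and span with part of P3H3. ASIC2 overlaps 8 annotated genes on its own strand and 9 on the other, so the counts of GPR162, GH1 and ASIC2 are uncertain. For RARB they were CERS1 (0.12), DMD (0.13) and CDX2 (0.13). DMD, the dystrophin gene, still had 23, 27 and 28 reads with GCNT1 OE after 380, 351 and 362 in the control lines. CDX2, an intestinal homeobox gene on chromosome 13, had 19, 29 and 31 reads in the control lines against 0 in each GCNT1 OE line. CERS1 shares its transcribed span with GDF1 on the same strand. None of the 6 genes lies on chromosome 3.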

How the data were processed

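RNA of 3 control and 3 GCNT1 OE lines of PC3 was measured, 1 library per line. The authors used Cutadapt for trimming and HISAT2 for hg38, with featureCounts as the counter, and deposited raw counts per Entrez gene. Annotation, strand setting and low-count filter are not given in the sources used here. All 6 columns were used, grouped by the sample titles. The counts (11392213 to 13825704 per library) were fitted in R 4.3.3 with edgeR 4.0.16: filterByExpr, which kept all 12703 genes, TMM factors, glmQLFit and glmQLFTest without a block, and BH adjustment over all genes. At this depth 3 counts, the floor, stand for 0.213 to 0.259 CPM. Libraries of a group differed by more than counting noise (chi-square per degree of freedom 1.65 to 5.65). Alternatives were limma-voom (limma 3.58.1), the test named by the study, DESeq2 1.42.0, RLE factors and library size. Others were 2 filters, a replicate block and each library left out. The limma-voom fit used robust variance moderation, which the paper does not mention. The main edgeR fit, limma-voom and DESeq2 were tried on simulated counts, and the other alternatives were not. Positions are from RefSeq GRCh38.p14, the hg38 build, and 12659 genes had a symbol there. Exon lengths and overlaps are from GENCODE 44, and overlaps were sought among protein-coding and long noncoding RNA genes only. The members and gene lists were chosen with earlier results of these data known, the lists from general knowledge. Named were the 10 genes, the 5 Mb neighbourhood, called list genes, the most expressed uncalled gene of the 5 main lists, the chromosome 17 copies, and the 3 most similar profiles. HDAC3, NCOR1, TGM2, ME1 and the genes at the ends of a range were named after their values were seen. Results of some genes are not reported here, though counts over lists include them.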

Additional observations from a re-analysis of the deposited data

How the results depend on the processing

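Over the 13 alternatives between 1980 and 2513 genes were called. RXRA was the called gene among the flanks and paralogues each time. The filter at 10 counts in every library leaves out GCNT1, THRB, RARB, EOMES, NR5A2, NR2E3 and LRAT, so by its construction 1 gene of the neighbourhood and 6 nuclear receptors were called under it. Library size alone took the clock genes to 2, and leaving out a library the coregulators to between 1 and 2; the cause was not tested. Log2 fold changes near 0 changed sign, and for these the range over fits without 1 library follows. UBE2E2 ranged from -0.13 (GCNT1 OE replicate 1 left out) to 0.00348 (replicate 2), NR1D2 from -0.0150 (control replicate 3) to 0.0808 (GCNT1 OE replicate 1), NGLY1 from -0.0234 (control replicate 1) to 0.0142 (control replicate 3), THRA from -0.0186 (GCNT1 OE replicate 1) to 0.0653 (control replicate 3), RPL15 from -0.0744 (GCNT1 OE replicate 1) to 0.0197 (control replicate 3) and ZCWPW2 from -0.27 (GCNT1 OE replicate 1) to 0.41 (GCNT1 OE replicate 3). With library size NGLY1 was 0.0494 and RPL15 0.0257, and with limma-voom ZCWPW2 was -0.0219. The fitted log2 fold change of THRB ran from -7.30 to -4.83 and that of RARB from -7.80 to -5.75. The THRB ends came from the fit without GCNT1 OE replicate 3, which holds its only GCNT1 OE count, and from limma-voom. Library size moved the median of all genes by 0.06 and gave 1283 higher and 1230 lower genes.

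Replicate numbers did not pair the libraries: deviations of same-numbered libraries correlated at -0.27, -0.11 and -0.0024, and 0 of 6 libraries correlated best with their own number. With the replicate block 2423 genes were called, 2414 of them also without it, and the adjusted p of RARG was 0.0571 in edgeR.

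With 15 to 29 control counts per library, the size of the fall in THRB and RARB is known only within wide counting limits.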
